A study of Mus musculus with 9 samples.

Results

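Insulin signalling and glucose uptake genes were followed in mouse muscle as 10 genes, chosen by symbol: Insr, Irs1, Irs2, Pik3r1, Akt1, Akt2, Tbc1d4, Slc2a4, Foxo1 and Eif4ebp1. All 10 have a row among the 19335 features of the deposited count table. Counts were high enough to test 8 of them, and Pik3r1 and Tbc1d4 were too low. Muscle RNA of wild-type C57BL/6J mice was sequenced in 9 libraries, 3 in each of 3 groups. Mice given the high-fat diet with carnitine took 60% of their dietary energy as fat and drank L-carnitine, which carries fatty acids into mitochondria, at 100 mg/kg/day. Mice on the high-fat diet ate the same diet without carnitine, and control mice took 10% of their dietary energy as fat. All mice were 9 weeks old when assigned to groups, acclimatised for 2 weeks, were fed for 8 weeks and were fasted for 6 h before tissue was taken. All groups therefore share the fast, and the labels name no insulin treatment. The muscle is not named in the labels, and nothing there ties each library to its own mouse, so that p-values are set against the spread between libraries.

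Insulin binds a receptor tyrosine kinase on the muscle fibre, which phosphorylates the adaptor proteins IRS1 and IRS2. These recruit phosphoinositide 3-kinase, whose lipid product activates AKT. AKT inhibits the Rab GTPase-activating protein TBC1D4, and the glucose transporter GLUT4, encoded by Slc2a4, then moves to the cell surface. AKT also keeps the transcription factor FOXO1 out of the nucleus and, through the kinase complex mTORC1, releases the brake that 4E-BP1, encoded by Eif4ebp1, puts on translation. Most of this signalling works by phosphorylation and protein transport, which mRNA counts do not measure.

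Irs2 is known from liver as a target gene of FOXO factors and of the E-box factor TFE3. The promoters of the substrate genes Irs1 and Irs2 are shown because they hold letters that the other genes with a sequence lack. RefSeq promoter windows (build GRCm38.p6, the 250 bases before the start of the gene) were at hand for 7 of the 10 genes and are given 5′ to 3′ on the strand of the gene. Capitals mark 2 motifs searched on both strands: the E-box CACGTG, a site of basic helix-loop-helix factors, and the insulin response element TGTTTTG.
Irs1, chr1:82291440-82291689, minus strand: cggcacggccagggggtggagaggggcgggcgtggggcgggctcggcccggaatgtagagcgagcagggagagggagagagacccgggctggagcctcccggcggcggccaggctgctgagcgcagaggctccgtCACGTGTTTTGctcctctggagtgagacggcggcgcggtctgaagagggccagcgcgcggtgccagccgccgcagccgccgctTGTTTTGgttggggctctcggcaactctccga
Irs2, chr8:11008930-11009179, minus strand: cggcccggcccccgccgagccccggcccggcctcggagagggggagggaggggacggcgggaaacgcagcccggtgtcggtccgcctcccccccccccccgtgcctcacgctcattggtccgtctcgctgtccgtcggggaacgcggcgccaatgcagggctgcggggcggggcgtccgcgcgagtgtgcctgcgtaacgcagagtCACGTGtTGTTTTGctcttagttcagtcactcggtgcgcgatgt
Irs4, 40 bases around the motifs, chrX:141725342-141725381, minus strand: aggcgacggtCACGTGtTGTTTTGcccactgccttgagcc

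The motifs lie side by side in these substrate genes. In Irs1 the E-box and the response element overlap, their first letters 4 bases apart, and a second response element lies further downstream. In Irs2 they are separated by a single base, with starts 7 bases apart. Of 32851 promoter windows of this length, 6.02% hold the E-box and 5.56% the response element. Starts within 10 bases of each other occurred in 7 windows, 0.0213% of the total, and those 7 belong to Irs1, Irs2, the third substrate gene Irs4, Klf11, Pcbp1, Pyroxd1 and 1700019P21Rik. The 14 joined letters of Irs2 occurred in 2 windows, those of Irs2 and Irs4. The closeness of the motifs was noticed after the letters were seen, and a match is a description of the sequence, not a measured site. A FOXO site, TGTTTAC on either strand, occurred in 3.17% of windows and, among the 7 genes with a window, in the upstream window of Akt1.

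Libraries held 2315985 to 3773649 counts. All 15 muscle markers were detected. Together they made up 46770 to 54010 CPM (counts relative to each library's total, scaled by TMM factors) with carnitine, 64780 to 80360 CPM on the high-fat diet and 62660 to 90280 CPM in controls. In this sum every carnitine library lay below the 6 others. Myh4 was its largest part, at 14330 to 42730 CPM. Single markers differed, and Mb (1751 CPM) and Tnnc2 (2300 CPM) were highest of all 9 libraries in carnitine 1. Features whose span overlaps a feature on the opposite strand held 87.0% of all counts. The kit marks strand, but with which strand setting reads were counted is not given in the sources at hand. Reads from a gene and from its opposite-strand partner therefore cannot be told apart. Where reads were counted on the wrong strand, a gene with no partner would also lose reads, and this was not tested. Counts on features with no opposite-strand feature made up 14.1%, 9.31% and 9.98% of the carnitine libraries, 12.8%, 14.3% and 15.3% of the high-fat diet libraries and 15.5%, 10.3% and 14.1% of the control libraries. Carnitine library 1 stood apart from the other 2 carnitine libraries in that share and in its endothelial markers, whose 7 genes summed to 171 CPM there against 42.0 and 45.2 CPM. Pecam1 (62.2 CPM) and Cdh5 (63.0 CPM) made up most of that sum. Within the group only Vwf was not highest in carnitine 1, at 6.45 CPM against 6.73 CPM in carnitine 3.

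Among the 10 genes, 4 overlap an opposite-strand feature in the file: Insr, Irs1, Irs2 and Foxo1. Pik3r1, Akt1, Akt2, Tbc1d4, Slc2a4 and Eif4ebp1 have none, which does not settle on which strand their reads were counted. Gene positions below are those of the file (GRCm39).

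No gene of the 10 passed an adjusted p of 0.05 in any comparison by edgeR's quasi-likelihood test with Benjamini-Hochberg adjustment over 7523 features. DESeq2 called none on the high-fat diet against control, 1 with carnitine against the high-fat diet and none with carnitine against control. Over all features it called 33, 53 and 79 of 19331 in that order, a total that includes features it left without an adjusted p. It gave no adjusted p to Insr, Irs2 and Foxo1 in either carnitine comparison, nor to Pik3r1 and Tbc1d4 in any. Those genes could not be called there. On the high-fat diet against control the background was 0.0532% of features called, and 1 of the 8 tested genes, Eif4ebp1, had an unadjusted p below 0.05 where 6.31% of all features did. For carnitine against the high-fat diet the background was again 0.0532%, and 2 of 8, Eif4ebp1 and Slc2a4, had an unadjusted p below 0.05, against 12.0% of all features. For carnitine against control 0.425% of features were called, and 3 of 8, Irs2, Slc2a4 and Foxo1, had an unadjusted p below 0.05, against 10.4% of all features.

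All 8 tested genes had a negative log2 fold change with carnitine against the high-fat diet, from -1.59 to -0.23, with a median of -0.46. The common sign depends on scaling: with libraries scaled on features with no opposite-strand feature, Irs1 (0.08) and Irs2 (0.13) were positive. The median of all tested features was -0.01, and 50.6% of them were negative. Features with no opposite-strand feature had a median of -0.31 and 68.9% were negative, whereas features with one had a median of 0.16 and 38.3% were negative. Of the 8 genes, 4 belong to each class, and the part of these class differences in the genes' values was not tested. On the high-fat diet against control 5 of the 8 were positive and 3 negative, with a median of 0.14 against 0.00 for all features, of which 50.6% were positive. The carnitine and control comparison gave 1 positive and 7 negative, with a median of -0.39 against 0.00 for all features, of which 50.3% were negative. These comparisons share libraries, so their values are not independent of each other.

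**Figure D1:**
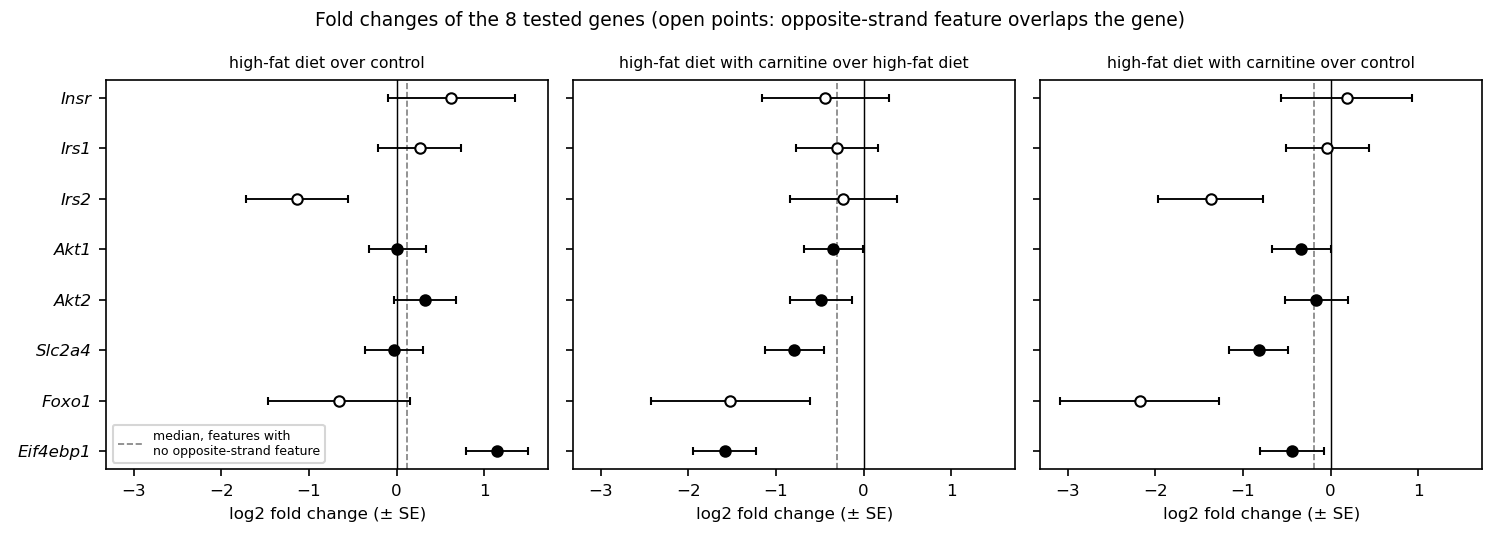
Log2 fold change (x axis, ± SE from edgeR) of the 8 tested genes in the 3 comparisons, with 3 libraries per group. Open points are genes that an opposite-strand feature overlaps, the dashed line is the median of features with none, and all 8 genes lie below 0 in the middle panel, from -1.59 to -0.23.

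Levels were compared between genes on the authors' FPKM scale, which divides by gene length. Over the 9 libraries Irs1 averaged 16.2 ± 7.10 FPKM, Slc2a4 15.2 ± 6.20, Eif4ebp1 10.9 ± 6.77, Akt1 9.15 ± 3.06 and Akt2 4.28 ± 1.66 FPKM (SD, n = 9). The other 5 averaged 1 FPKM or less: Irs2 0.998, Foxo1 0.496, Insr 0.305, Pik3r1 0.155 and Tbc1d4 0.141 FPKM. Akt1 was above Akt2, and Akt2 above Irs2, in 9 of 9 libraries. Other neighbours in this order changed places in at least 2 libraries, so their order is not separated from the spread. This order is that of the rows as annotated, and the opposite-strand rows stood higher than their partners: Gm9747 averaged 288 FPKM beside Irs1, 9530052E02Rik 8.14 FPKM beside Irs2 and Gm20402 64.2 FPKM beside Foxo1. Where those reads belong to the partner, its place in the order would differ.

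The first steps of the pathway varied within groups as much as between them. Insr encodes the insulin receptor (chr8:3172061-3329617, minus strand) and had 3.41, 3.43 and 4.81 CPM with carnitine, 7.80, 3.94 and 4.09 CPM on the high-fat diet and 4.38, 0.979 and 4.60 CPM in controls. These rest on 2 to 22 counts per library, and the groups overlap. Its log2 fold change was -0.44 ± 0.73 (SE) with carnitine against the high-fat diet (adjusted p = 0.857) and 0.62 ± 0.72 on the high-fat diet against control (adjusted p = 0.956). The opposite-strand Vmn2r-ps88, an unprocessed pseudogene, lies within its span, shares no exon with it in GENCODE M21 and had 7 counts in all libraries together.

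Irs1 is the substrate whose row shares most sequence with an opposite-strand feature. It lies on chr1:82210822-82269137, minus strand, and had 77.4, 134 and 201 CPM with carnitine, 198, 83.3 and 226 CPM on the high-fat diet and 228, 81.2 and 111 CPM in controls. The groups cover nearly the same range. Its fold change was -0.30 ± 0.47 (log2, SE) with carnitine against the high-fat diet, 0.26 ± 0.47 on the high-fat diet against control and -0.04 ± 0.47 with carnitine against control, with adjusted p from 0.853 to 0.982. Gm9747, annotated on the plus strand at chr1:82210833-82213654 within the span of Irs1, shares all of its 2822 bp with Irs1 exon in GENCODE M21. Its row held 19631 counts over the 9 libraries, and that of Irs1 3592.

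The row of Gm9747 had 569, 1188 and 1545 CPM with carnitine, 1063, 588 and 939 CPM on the high-fat diet and 742, 437 and 380 CPM in controls. Its log2 fold change was 1.08 ± 0.33 with carnitine against control (adjusted p = 0.225), 0.73 ± 0.33 on the high-fat diet against control (adjusted p = 0.746) and 0.35 ± 0.33 with carnitine against the high-fat diet (adjusted p = 0.711). The first of these passed the threshold without carnitine library 1 (1.40, adjusted p = 0.00608), with DESeq2 (1.09, adjusted p = 0.0484) and without a filter on low counts (1.08, adjusted p = 0.00312). Calls over all features rose as well in these settings, from 32 to 86, 79 and 60. Irs1 and Gm9747 had fold changes of opposite sign in both carnitine comparisons. With both rows summed, a setting added after the data were seen, the log2 fold change was 0.26 ± 0.34 with carnitine against the high-fat diet, 0.65 ± 0.34 on the high-fat diet against control and 0.91 ± 0.34 with carnitine against control (adjusted p = 0.81, 0.838 and 0.334). The sign for Irs1 in both carnitine comparisons therefore depends on which rows are counted as its reads.

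The share of the pair's counts that fell on the Irs1 row was 12.0%, 10.1% and 11.5% with carnitine, 15.7%, 12.4% and 19.4% in high-fat diet libraries and 23.5%, 15.7% and 22.7% in controls. All 3 carnitine libraries lay below all 6 others. This measure was chosen after its values were seen and has no test. Among 1756 opposite-strand pairs with both rows tested, the share of the smaller row was lower in all carnitine than in all high-fat diet libraries in 12.3%, and lower than in all control libraries in 7.23%. The median share over these pairs was 18.6%, 12.97% and 13.1% in the carnitine libraries, 15.5%, 18.0% and 17.5% in the high-fat diet libraries and 16.7%, 14.6% and 17.2% in the control libraries.

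**Figure D2:**
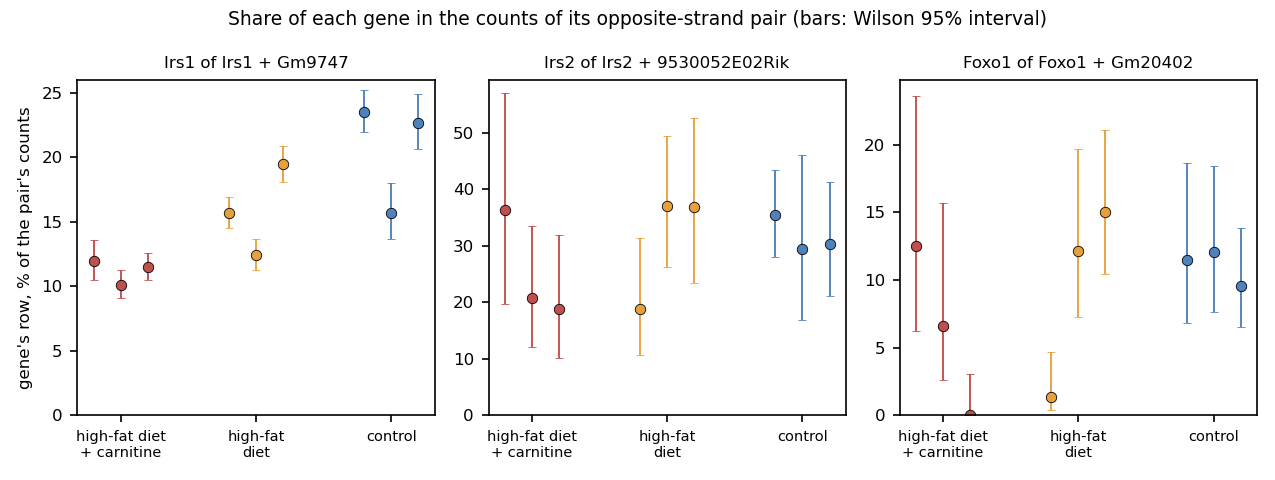
Share of a gene's own row in the counts of the gene and its opposite-strand partner (y axis, percent) for Irs1, Irs2 and Foxo1, 1 point per library with its Wilson 95% interval. For Irs1 the carnitine libraries lie at 10.1% to 12.0%, below the 12.4% to 19.4% of the high-fat diet and the 15.7% to 23.5% of controls. For Irs2 and Foxo1 the groups overlap.

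Irs2, the other main substrate, had the lower level per length, 0.998 FPKM. It lies on chr8:11034681-11058458, minus strand, and had 3.03, 4.71 and 4.33 CPM with carnitine, 3.55, 5.34 and 5.20 CPM on the high-fat diet and 18.6, 4.89 and 7.56 CPM in controls. Every carnitine library lay below every control library, by little in the case of control 2, and the high-fat diet libraries overlapped with both. Libraries of a tested feature separated in this way, lower with carnitine than in control, in 7.18% of all tested features. The log2 fold change was -1.37 ± 0.60 with carnitine against control (adjusted p = 0.418), -1.14 ± 0.58 on the high-fat diet against control (adjusted p = 0.807) and -0.23 ± 0.61 with carnitine against the high-fat diet (adjusted p = 0.916). Control 1 held the highest value, and without it the fold change with carnitine against control was -0.63 (adjusted p = 0.919).

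The long non-coding RNA 9530052E02Rik (chr8:11057850-11104541, plus strand) starts opposite the 5′ end of Irs2 and runs on upstream of that gene. It overlaps 609 bp of the span of Irs2 and shares 162 bp of exon with it in GENCODE M21. Its row had 5.31, 18.0 and 18.8 CPM with carnitine, 15.2, 9.05 and 8.91 CPM on the high-fat diet and 34.0, 11.8 and 17.4 CPM in controls. As for Irs2, control 1 was highest. Its log2 fold change on the high-fat diet against control was -0.94 ± 0.47 (adjusted p = 0.803), and that of both rows summed was -1.0 ± 0.43 (adjusted p = 0.667). The summed rows gave -0.81 ± 0.43 with carnitine against control (adjusted p = 0.535).

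Pik3r1 encodes the p85 regulatory subunit of phosphoinositide 3-kinase (chr13:101817071-101904725, minus strand) and was too low to test. It had 7, 2 and 1 counts with carnitine, 8, 3 and 9 counts on the high-fat diet and 8, 0 and 0 counts in controls. At this depth a count of 0 allows up to 3 counts, and no difference was detectable.

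The kinases Akt1 and Akt2 had overlapping libraries in every comparison. Akt1 (chr12:112620255-112641318, minus strand), the form known mainly for growth, had 26.5, 37.7 and 31.7 CPM with carnitine, 60.6, 30.2 and 31.2 CPM on the high-fat diet and 52.9, 28.4 and 39.1 CPM in controls. Akt2 (chr7:27290977-27340251, plus strand), the form known mainly for glucose uptake, had 34.9, 22.3 and 19.7 CPM with carnitine, 23.0, 35.5 and 49.8 CPM on the high-fat diet and 35.4, 19.6 and 30.9 CPM in controls. The highest libraries differ, high-fat diet 1 for Akt1 and high-fat diet 3 for Akt2. The log2 fold change with carnitine against the high-fat diet was -0.34 ± 0.33 for Akt1 (adjusted p = 0.721) and -0.49 ± 0.35 for Akt2 (adjusted p = 0.606). Both lie within 1 SE of the -0.31 median of features with no opposite-strand feature. On the high-fat diet against control it was 0.01 ± 0.33 for Akt1 (adjusted p = 0.999) and 0.33 ± 0.35 for Akt2 (adjusted p = 0.95).

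Tbc1d4, the AKT target that holds GLUT4 vesicles inside the fibre (chr14:101679796-101846627, minus strand), was at or under the counting floor in most libraries. It had 2, 0 and 2 counts with carnitine, 0, 0 and 1 counts on the high-fat diet and 0, 7 and 14 counts in controls. Control 2 and 3 are the only libraries above 3 counts, and control 1 had none, so the groups overlap. With no filter on low counts its log2 fold change on the high-fat diet against control was -4.13 ± 1.76 (adjusted p = 0.864), which rests on those 2 libraries.

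Slc2a4 encodes GLUT4, the insulin-responsive glucose transporter of muscle and fat (chr11:69833365-69839014, minus strand, no opposite-strand feature). It had 58.8, 24.0 and 21.2 CPM with carnitine, 49.7, 49.9 and 81.7 CPM on the high-fat diet and 72.3, 53.8 and 58.5 CPM in controls. Carnitine 2 and 3 were the lowest of all 9 libraries, while carnitine 1 lay among the others. Mean levels were 34.6 ± 20.9 CPM with carnitine, 60.4 ± 18.4 CPM on the high-fat diet and 61.6 ± 9.58 CPM in controls (SD, n = 3 each). The log2 fold change was -0.79 ± 0.34 with carnitine against the high-fat diet (adjusted p = 0.351) and -0.82 ± 0.34 with carnitine against control (adjusted p = 0.374). The diet by itself gave -0.03 ± 0.33 against control (adjusted p = 0.999).

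Whether Slc2a4 passed the threshold depended on carnitine 1. Without that library the fold change was -1.41 with carnitine against the high-fat diet (adjusted p = 0.0226) and -1.44 against control (adjusted p = 0.0141). Calls over all features rose as well without it, from 4 to 84 and from 32 to 86. Carnitine 1 also carried the endothelial sum of 171 CPM, against 42.0 and 45.2 CPM in carnitine 2 and 3, 56.8 to 101 CPM on the high-fat diet and 40.8 to 48.5 CPM in controls. Of 8 listed adipocyte markers 7 have a row, and these summed to 130 CPM in it, against 48.8 and 48.6 CPM in carnitine 2 and 3, 62.0 to 82.1 CPM on the high-fat diet and 40.1 to 60.2 CPM in controls. Fabp4, which capillary endothelium also expresses, made up nearly all of that sum in carnitine 1, at 129.7 CPM. Of the other 6, Adipoq, Plin1 and Adrb3 were at 0 in all 3 carnitine libraries, Retn had 0.379 CPM in carnitine 1, and Cfd had 0.856 and Cidec 3.00 CPM in carnitine 2, with 0 elsewhere in that group. Fewer fibres in a bulk sample and less RNA per fibre cannot be told apart. When libraries were scaled on the features with no opposite-strand feature, both differences were smaller, -0.55 against the high-fat diet and -0.69 against control for Slc2a4. The part of these library differences in the Slc2a4 values was not tested.

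**Figure D3:**
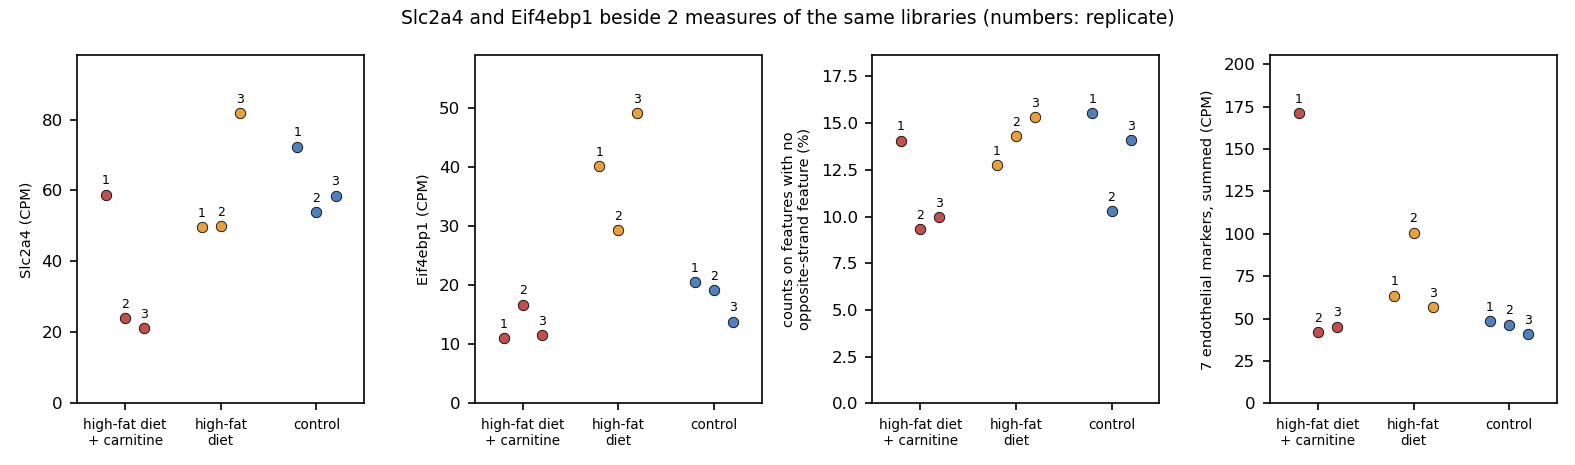
Slc2a4 and Eif4ebp1 (CPM), the share of counts on features with no opposite-strand feature (percent) and the sum of 7 endothelial markers (CPM), 1 point per library numbered by replicate. Carnitine 2 and 3 are lowest for Slc2a4 (24.0 and 21.2 CPM) and for the share (9.31% and 9.98%), and carnitine 1 is highest for the endothelial sum (171 CPM). Eif4ebp1 is low in all 3 carnitine libraries, 11.0 to 16.7 CPM.

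Features with a profile most like that of Slc2a4 were found by the root mean square difference of centred log2 CPM over the 9 libraries. Features with predicted Gm or Rik symbols, or with no symbol, were skipped. They were Jak1 at 0.216, Slc38a2 at 0.223 and Eif5 at 0.226 log2 units, where the profile of Slc2a4 itself deviates from its mean by 0.615. Jak1, a cytokine receptor kinase, had 20.1, 7.71 and 5.77 CPM with carnitine, 19.5, 16.9 and 33.0 CPM on the high-fat diet and 21.9, 12.7 and 17.1 CPM in controls, and an opposite-strand feature overlaps it. Slc38a2, an amino acid transporter, had 18.6, 6.85 and 5.29 CPM with carnitine, 11.0, 13.7 and 22.3 CPM on the high-fat diet and 21.2, 22.5 and 18.4 CPM in controls. All 3, like Slc2a4, were lowest in carnitine 2 and 3, which follows from their choice by likeness over these same libraries.

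Foxo1, the transcription factor that AKT keeps out of the nucleus (chr3:52175757-52260642, plus strand), was counted 7, 4 and 0 times with carnitine, 2, 13 and 26 times on the high-fat diet and 13, 17 and 24 times in controls. Carnitine 3 had none, which allows up to 1.44 CPM. All carnitine libraries were below all controls, as in 7.18% of tested features, and the high-fat diet libraries spanned both. Its log2 fold change was -2.18 ± 0.91 with carnitine against control (adjusted p = 0.375), -1.52 ± 0.91 with carnitine against the high-fat diet (adjusted p = 0.505) and -0.66 ± 0.81 on the high-fat diet against control (adjusted p = 0.957). Over the alternatives these values lay between -2.90 and -0.86, between -2.24 and -0.35 and between -1.83 and -0.17, and none was called. DESeq2 gave Foxo1 no adjusted p in the carnitine comparisons. The long non-coding RNA Gm20402 lies opposite its 5′ end, shares 674 bp of exon with it in GENCODE M21 and held 1070 counts against 106 for Foxo1. With both rows summed the fold change with carnitine against control was smaller, -0.86 ± 0.39 (adjusted p = 0.448).

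Eif4ebp1 showed the clearest difference among the 10 genes, and it did not pass the threshold in the test as designed. Its product 4E-BP1 binds the cap-binding protein eIF4E and blocks translation until mTORC1 phosphorylates it. The gene lies on chr8:27750357-27766702, plus strand, with no opposite-strand feature, and had 11.0, 16.7 and 11.5 CPM with carnitine, 40.1, 29.2 and 49.0 CPM on the high-fat diet and 20.4, 19.1 and 13.8 CPM in controls. Every high-fat diet library lay above all 6 others, while the carnitine and control libraries overlapped. Mean levels were 13.1 ± 3.15 CPM with carnitine, 39.5 ± 9.91 CPM on the high-fat diet and 17.8 ± 3.50 CPM in controls (SD, n = 3 each).

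Its log2 fold change with carnitine against the high-fat diet was -1.59 ± 0.36 (adjusted p = 0.0856), which ranked 14 by p among 7523 features. On the high-fat diet against control it was 1.15 ± 0.35 (adjusted p = 0.26), and with carnitine against control -0.44 ± 0.37 (adjusted p = 0.745). Complete separation of libraries occurred in 9.82% of all features for lower with carnitine than on the high-fat diet and in 7.23% for higher on the high-fat diet than in control. The fold change with carnitine against the high-fat diet passed the threshold with DESeq2 (adjusted p = 0.00771), with no filter on low counts (adjusted p = 0.0426) and without composition factors (adjusted p = 0.0456), and over all 13 alternatives it lay between -1.82 and -1.24, with adjusted p from 0.00771 to 0.42. The diet comparison passed in none of the alternatives run, at 0.96 to 1.33 with adjusted p from 0.127 to 0.932. The smallest change with carnitine against the high-fat diet, -1.24 (adjusted p = 0.206), came from scaling on features with no opposite-strand feature.

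With Gm, Rik and unnamed features again skipped, those most like Eif4ebp1 were Eif4a3 at 0.293, Tom1 at 0.324 and Cep120 at 0.325 log2 units. Over the 9 libraries the profile of Eif4ebp1 itself deviates from its mean by 0.699. Eif4a3, an RNA helicase of the exon junction complex, had 1.14, 1.71 and 1.92 CPM with carnitine, 4.26, 3.71 and 4.83 CPM on the high-fat diet and 2.19, 2.94 and 0.986 CPM in controls. Tom1, which acts in endosomal sorting and is overlapped by an opposite-strand feature, had 1.52, 3.00 and 1.44 CPM with carnitine, 5.32, 6.73 and 7.80 CPM on the high-fat diet and 4.75, 3.43 and 3.95 CPM in controls. For Eif4a3 the values in carnitine 1 and control 3 equal 3 counts. In all 3 features, as in Eif4ebp1, the mean was highest on the high-fat diet, which follows from their choice by likeness.

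**Figure D4:**
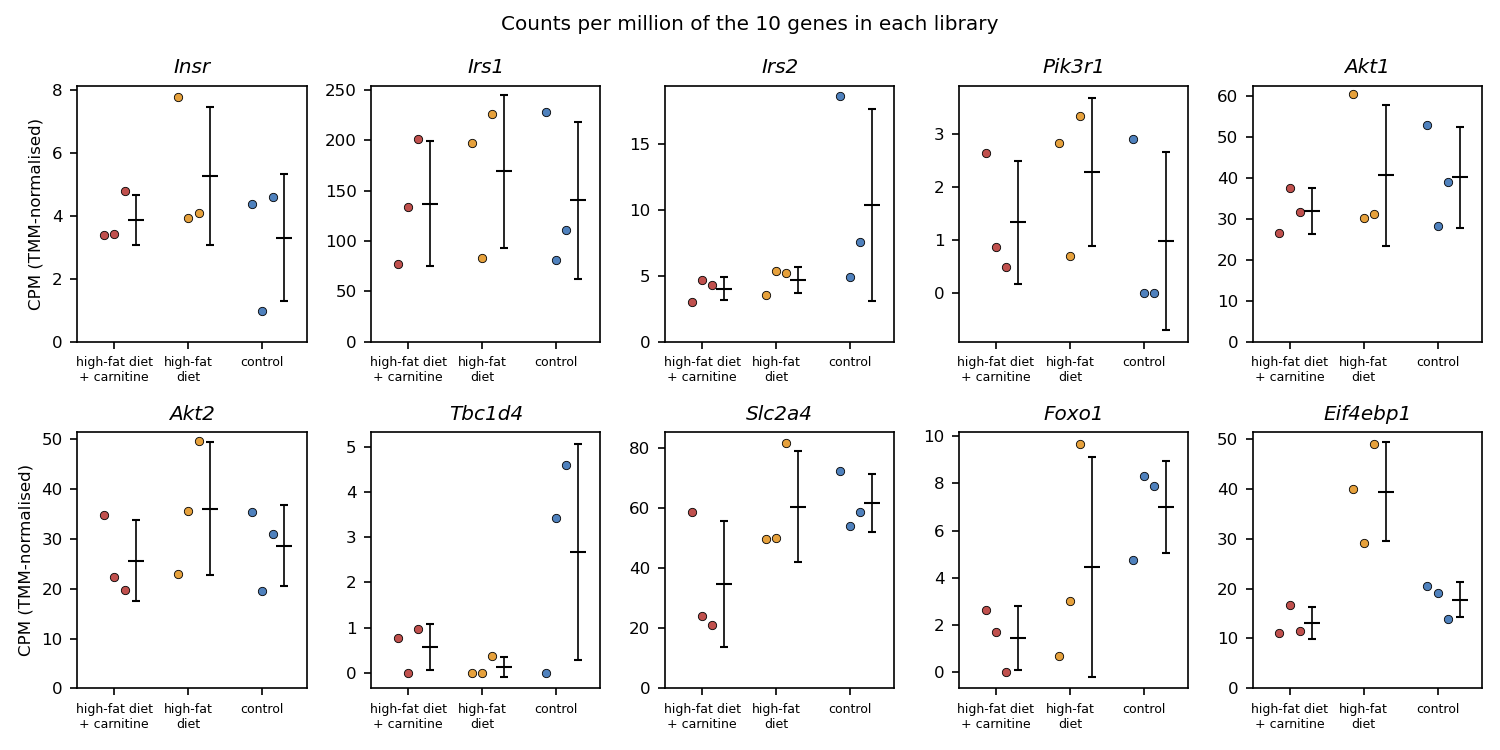
CPM (y axis, TMM-normalised, own scale in each panel) of the 10 genes, 1 point per library, with the mean ± SD of each group of 3 to its right. Eif4ebp1 is the panel in which the high-fat diet libraries (29.2 to 49.0 CPM) lie above all others, and Slc2a4 the one in which carnitine 2 and 3 (24.0 and 21.2 CPM) lie apart from carnitine 1.

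Beyond the 10 genes, a list of 75 further genes of the pathway was read in the same fit, of which 54 were tested. No gene of it was called on the high-fat diet against control, where 36 were positive and 18 negative with a median log2 fold change of 0.35, where 50.6% of all features were positive. Of these 54, 7 were higher and 1 lower at an unadjusted p below 0.05. Over all features 2.69% were higher and 3.63% lower. DESeq2 called 1, Ddit4, where it called 33 of 19331 features, counted with or without an adjusted p. For carnitine against the high-fat diet none was called either, 14 were positive and 40 negative where 50.6% of all features were negative, and the median was -0.39. Here 1 was higher and 9 lower at an unadjusted p below 0.05, where 5.44% of all features were higher and 6.58% lower. DESeq2 called 2, Gys1 and Tbc1d1, where it called 53 of 19331 features, counted in the same way. Both medians lie on the same side as those of features with no opposite-strand feature, 0.12 and -0.31, and further from 0. For carnitine against control 1 gene, Ddit4, was called, where 0.425% of all features were called. There 23 were positive and 31 negative, where 50.3% of all features were negative, and the median was -0.08. Without carnitine 1 the count for carnitine against the high-fat diet was 5 (Gys1, Mtor, Pdk4, Sesn1 and Tbc1d1). Calls over all features rose as well in that setting, from 4 to 84.

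Ddit4 encodes REDD1, which restrains mTORC1 and is induced by fasting and glucocorticoids. It fell with carnitine against control, at 17.4, 5.14 and 5.77 CPM with carnitine, 8.51, 4.64 and 16.3 CPM on the high-fat diet and 35.4, 57.3 and 48.0 CPM in controls. Every library of both high-fat groups lay below every control, while 7.18% of all features were lower in this way with carnitine and 6.86% on the high-fat diet. The log2 fold change was -2.28 ± 0.47 with carnitine against control (adjusted p = 0.03) and -2.27 ± 0.46 on the high-fat diet against control (adjusted p = 0.0563), and these comparisons share the control libraries. Between carnitine and the high-fat diet it was -0.01 ± 0.49 (adjusted p = 0.996). The call with carnitine against control was lost without composition factors (adjusted p = 0.0947) and when control 2 (0.0891), control 3 (0.129), carnitine 2 (0.145) or carnitine 3 (0.0915) was left out. The diet comparison passed in 7 of 13 alternatives.

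FOXO factors and their targets, 6 tested genes of 7, gave a median of 0.83 on the high-fat diet against control, with 5 positive, where 50.6% of all features were, and 4 higher at an unadjusted p below 0.05, where 2.69% of all features were. The ubiquitin ligase Trim63 had 322, 167 and 201 CPM with carnitine, 332, 245 and 630 CPM on the high-fat diet and 205, 162 and 204 CPM in controls, and its log2 fold change on the high-fat diet against control was 1.08 ± 0.30 (adjusted p = 0.195). The ligase Fbxo32, whose row shares 186 bp of exon with Gm15943 in GENCODE M21, gave 1.05 ± 0.34 (adjusted p = 0.4). All high-fat diet libraries lay above all controls for both genes, as in 7.23% of all features. Trim63 was called without a filter on low counts (adjusted p = 0.0105), and Fbxo32 without a filter (adjusted p = 0.0212) and with only the 6 libraries of the comparison (adjusted p = 0.0459). Over all 13 alternatives the fold change of Trim63 lay between 0.60 and 1.33. Under carnitine against the high-fat diet the 6 genes had a median of -0.79 and none was positive, where 50.6% of all features were negative. Among them only Fbxo32 overlaps an opposite-strand feature in the file. Features with none had a median of -0.31 in this comparison, and 68.9% were negative. Pdk4, the kinase that restrains pyruvate oxidation, had 426, 185 and 262 CPM with carnitine, 503.6, 534 and 546 CPM on the high-fat diet and 405, 232 and 393 CPM in controls, a log2 fold change of -0.86 ± 0.27 with carnitine against the high-fat diet (adjusted p = 0.226). Without carnitine 1 that fold change was -1.23 and passed the threshold (adjusted p = 0.0108), in a setting that called 84 of all features.

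GLUT4 traffic genes, 11 tested of 14, showed no common direction, with a median of -0.07 with carnitine against the high-fat diet and -0.24 on the high-fat diet against control. Tbc1d1, a paralog of Tbc1d4 and likewise a Rab GTPase-activating protein, had 10.2, 7.28 and 12.5 CPM with carnitine, 38.0, 39.7 and 16.7 CPM on the high-fat diet and 23.7, 17.1 and 26.0 CPM in controls. Its carnitine libraries were the lowest of all 9, and 9.82% of all features were lower in every carnitine than in every high-fat diet library. The log2 fold change was -1.66 ± 0.40 with carnitine against the high-fat diet (adjusted p = 0.136), and it passed the threshold without high-fat diet 3 (-1.95, adjusted p = 0.0485) and without carnitine 1 (-1.67, adjusted p = 0.049). Vamp2, a vesicle SNARE of GLUT4 vesicles, had 7.58, 4.28 and 0.962 CPM with carnitine, 6.38, 6.03 and 8.91 CPM on the high-fat diet and 0.730, 0.979 and 3.29 CPM in controls, a log2 fold change of 2.02 ± 0.79 on the high-fat diet against control (adjusted p = 0.565).

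Among glucose transport and phosphorylation genes, 5 tested of 8, the median was -0.71 with carnitine against the high-fat diet. Gys1, the muscle glycogen synthase that insulin activates, had 45.1, 20.1 and 40.9 CPM with carnitine, 86.9, 75.0 and 86.9 CPM on the high-fat diet and 89.8, 54.8 and 68.1 CPM in controls. All carnitine libraries lay below all others, as 9.82% of all features did against the high-fat diet and 7.18% against control. The log2 fold change was -1.23 ± 0.30 with carnitine against the high-fat diet (adjusted p = 0.145) and -1.0 ± 0.30 with carnitine against control (adjusted p = 0.19). Without carnitine 1 these were -1.44 (adjusted p = 0.0167) and -1.22 (adjusted p = 0.0395), in a setting that called 84 and 86 of all features. Its row shares 310 bp of exon with the opposite-strand Ruvbl2 in GENCODE M21. Mef2d, listed in another group, the MEF2 and SREBP regulators, is of a transcription factor family that acts on the Slc2a4 promoter. It had 26.5, 21.4 and 25.0 CPM with carnitine, 51.1, 49.7 and 39.7 CPM on the high-fat diet and 40.5, 20.1 and 35.2 CPM in controls. Its log2 fold change with carnitine against the high-fat diet was -0.94 ± 0.32 (adjusted p = 0.256), and 531 bp of its exon is shared with 1700113A16Rik.

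The remaining groups were read by their medians. Those of receptor and adaptor genes (4 tested of 12) and of phosphoinositide 3-kinases and phosphatases (4 of 8) were -0.13 and -0.22 with carnitine against the high-fat diet, and those of AKT regulators (5 of 7) and of mTORC1 and translation genes (15 of 15) were -0.36 and -0.32. The same 4 medians on the high-fat diet against control were 0.35, 0.71, 0.23 and 0.29. For MEF2 and SREBP regulators (4 tested of 4) the median was -0.68 with carnitine against the high-fat diet and 0.5 on the high-fat diet against control. No gene of these groups other than Ddit4 was called in any comparison.

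**Figure D5:**
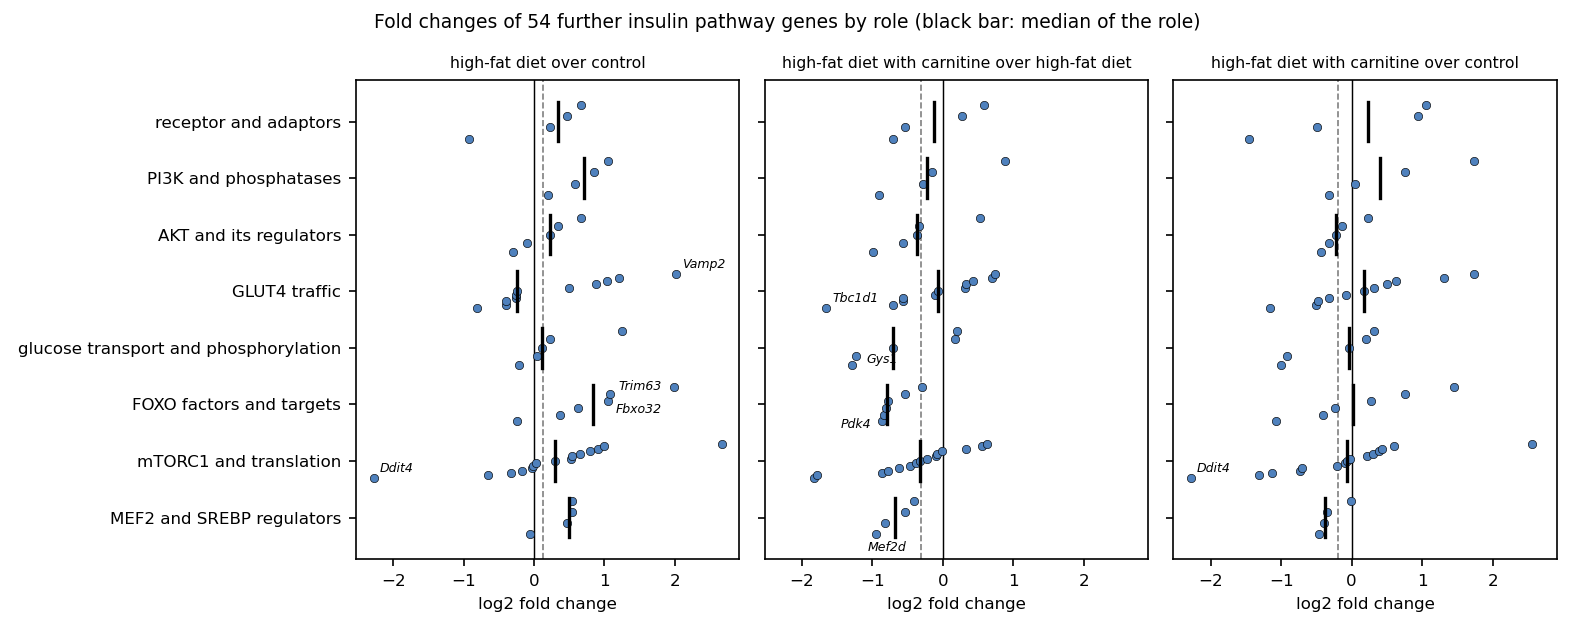
Log2 fold change (x axis) of 54 tested genes in 8 roles, 1 point per gene, with the median of each role as a black bar and the median of features with no opposite-strand feature as a dashed line. FOXO factors and targets, a role without Foxo1, lie mostly above 0 on the high-fat diet against control (median 0.83). With carnitine against the high-fat diet they lie below 0 (median -0.79). Ddit4 lies at -2.27 and -2.28 in the comparisons with control.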

How the data were processed

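Muscle mRNA was sequenced in 9 libraries, 3 per group, with a stranded kit, per the labels' protocols. The submitters' processing notes list edgeR, HTSeq 0.13.5, HISAT2 2.2.0, Bowtie2 2.4.2 and Trim Galore 0.6.4, with neither their order nor a strand setting. The authors deposited whole-number counts for 19335 features, not normalised, with GRCm39 coordinates. They also deposited FPKM values, and the length that count and FPKM imply was checked to be the same in all libraries (largest relative deviation 9e-15 over 4411 genes). FPKM was used only to compare levels between genes.

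Counts were tested by the robust quasi-likelihood F-test of edgeR 4.0.16 (R 4.3.3), with TMM factors, the default expression filter and 1 fit of all 9 libraries without covariates. Benjamini-Hochberg adjustment ran over 7523 features in each comparison, and features under an adjusted p of 0.05 were called. The standard error (SE) is the log2 fold change over the root of F. CPM values use TMM-scaled totals. Shares have Wilson 95% intervals, and 3 counts are the limit that a count of 0 leaves. Both cover counting error only. Chi-square tests of counts found no 2 libraries of a group alike within sampling noise.

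Opposite-strand overlap was read from the spans in the file. Exon sharing came from GENCODE M21, which uses another build: 377 of 19097 shared features have the same start. It was used only for which genes share exon sequence.

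The 10 genes, the 75 further genes and the tests were chosen with earlier results of these data known. The text names all 10 genes and, of the 75, those called in a comparison or otherwise the 4 with the smallest p. It also names the opposite-strand features of the 10 and the 3 features most alike Slc2a4 and Eif4ebp1, with predicted Gm and Rik symbols and unnamed features skipped. Of 7 cell type marker lists fixed for the check of tissue, muscle, endothelial and adipocyte markers are described in the report and the others in the closing section. A count of the further genes called with carnitine against control when carnitine 1 is left out is not reported here. Alternatives were other scaling factors, DESeq2 1.42.0, no filter, only the libraries of a comparison, a replicate block and each library left out in turn.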

Additional observations from a re-analysis of the deposited data

How the results depend on the processing

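No gene of the 10 was called in any comparison as designed (4, 4 and 32 of all features were called on the high-fat diet against control, with carnitine against the high-fat diet and with carnitine against control, in that order throughout). RLE factors gave 6, 5 and 33. The counts over all features were 0, 10 and 18 without composition factors, 2, 5 and 14 with scaling on features with no opposite-strand feature, 33, 53 and 79 with DESeq2, 68, 26 and 60 without a filter and 40, 0 and 10 with only the 6 libraries of a comparison. Leaving out 1 library gave 0 to 13, 1 to 84 and 5 to 86, the highest carnitine values without carnitine 1. For carnitine against the high-fat diet 1 of the 10, Eif4ebp1, was called without composition factors, with DESeq2 and without a filter. Leaving out 1 library gave 0 to 1 of the 10 called in both carnitine comparisons, the 1 being Slc2a4 without carnitine 1. Replicate numbers did not pair libraries: same-numbered deviations correlated at -0.164 to 0.142, with 1 of 9 over 0.1. With the replicate block 10, 3 and 31 features were called and none of the 10 genes.

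Without composition factors the median of all features shifted by 0.17, -0.19 and -0.02 (log2), and with scaling on features with no opposite-strand feature by -0.11, 0.33 and 0.21. The following uncalled log2 fold changes changed sign. With scaling on features with no opposite-strand feature, Akt1 was -0.0499 on the high-fat diet against control. With carnitine against the high-fat diet Irs1 was 0.0811, Irs2 0.13, Ddit4 0.21 and Gm20402 0.0325, and with carnitine against control Irs1 was 0.29 and Akt2 0.0354. Slc2a4 on the high-fat diet against control was 0.13 without composition factors and 0.00277 with the replicate block, where Akt1 was -0.00805 and Irs1 with carnitine against control 0.0576. Summed with their opposite rows, Irs1 was 0.26 and Irs2 0.19 with carnitine against the high-fat diet, and Irs1 0.91 with carnitine against control. Leaving out 1 library gave, on the high-fat diet against control, -0.40 to 0.29 for Akt1, -0.31 to 0.13 for Slc2a4 and -0.00416 to 0.83 for Irs1. For carnitine against the high-fat diet it gave -0.52 to 0.0712 for Akt1, -0.81 to 0.57 for Ddit4 and -0.86 to 0.00334 for Fbxo32. With carnitine against control it gave -0.45 to 0.0255 for Akt2, -0.21 to 0.48 for Insr, -0.41 to 0.52 for Irs1, -0.62 to 0.00631 for Pdk4 and -0.0459 to 0.47 for Trim63. The cause of these changes was not tested. Low counts limit Insr, Irs2, Foxo1, Pik3r1 and Tbc1d4, each with at most 159 counts over all 9 libraries. Why these counts are low was not tested.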

Other observations

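Markers of other cell types were low beside those of muscle. Immune markers summed to 114 to 118 CPM with carnitine, 88.9 to 118 CPM on the high-fat diet and 72.6 to 141 CPM in controls. Csf1r made up most of each of these sums, at 69.0 to 122.8 CPM, and the next highest marker, Cd3e, reached at most 15.1 CPM. Fibroblast markers summed to 16.4 to 22.0, 12.3 to 39.0 and 15.8 to 36.7 CPM in the same order of groups, erythroid markers to 3.85 to 15.4, 3.55 to 6.27 and 8.22 to 14.6 CPM and Schwann cell markers to 0.962 to 7.21, 2.23 to 21.1 and 4.01 to 47.5 CPM. These groups overlapped for all 4 lists, except that erythroid markers were lower in every high-fat diet library than in every control library. Single features separated in this way in 6.86% of those tested. The erythroid sums rest on few counts, with 2 of the 5 markers under a mean of 3 counts.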
